A study of Mus musculus with 2 samples.

Results

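The 8 genes examined here carry or receive the signals that make osteoclasts, the cells that resorb bone, or encode 2 enzymes by which osteoclasts are recognised. They were *Tnfsf11* (RANKL), *Tnfrsf11a* (RANK), *Tnfrsf11b* (osteoprotegerin), *Csf1* (M-CSF), *Il34*, *Csf1r*, *Ctsk* (cathepsin K) and *Acp5* (tartrate-resistant acid phosphatase, TRAP), and they were taken by symbol from the 32285 genes of the deposited tables, whatever their values. The data were 2 single-cell RNA-seq libraries of palatal gingiva from female C57BL/6J mice aged 8 to 12 weeks. One group had CpG ODN, a synthetic TLR9 ligand, placed on the palate, and the other had *P. gingivalis* LPS, which activates TLR2/4. Either ligand was given at 1 µg/ml in 3 µl under an oral appliance for 1 h, and the tissue was taken on day 4. Cells of 4 mice were pooled into a single library per ligand, so the ligands cannot be compared over replicates, and each 95% interval below covers counting error only. Both libraries came from treated mice, and no untreated library was used here.

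RANKL is a ligand of the TNF family that binds RANK on myeloid precursors and drives them to become osteoclasts, and osteoprotegerin is a secreted decoy that binds RANKL first. M-CSF and IL-34 are ligands of the CSF-1 receptor, which keeps these precursors alive. Mature osteoclasts secrete cathepsin K, a cysteine protease that cuts collagen, and TRAP, but neither enzyme is made by osteoclasts alone. In periodontal disease these signals are studied because the gingiva lies against the alveolar bone that is lost.

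The genes lie on GRCm38 as follows. *Ctsk* (ENSMUSG00000028111) spans chr3:95499256-95509362 on the plus strand, *Csf1* (ENSMUSG00000014599) spans chr3:107741048-107760469 on the minus strand, and *Tnfsf11* (ENSMUSG00000022015) spans chr14:78277445-78308043 on the minus strand. *Tnfrsf11a* (ENSMUSG00000026321) spans chr1:105780718-105847981 on the plus strand, and *Tnfrsf11b* (ENSMUSG00000063727) spans chr15:54250619-54278484 on the minus strand. *Il34* (ENSMUSG00000031750) spans chr8:110741829-110805924 and *Acp5* (ENSMUSG00000001348) spans chr9:22126727-22135711, both on the minus strand. *Il34* overlaps 2 antisense genes that had 2 and 5 UMIs in all kept cells, and *Acp5* overlaps a gene on the opposite strand that had 5.

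RefSeq promoter windows of GRCm38.p6, from 250 bases before to 50 bases after a start site, were at hand for 5 of the 8 genes, with 3 starts for *Acp5*. The 3 windows printed here are those in which a script found a match of 5 searched motifs on either strand, with the matches in capitals. They are the start regions of the ligand that was nearly undetected in these cells, of an enzyme gene read almost solely in fibroblast-like cells and of one read in many classes. The motifs were the TATA box TATAAA (in 13.6% of 32851 windows of this length), an AP-1 site TGANTCA (7.81%), the E-box CACGTG (7.15%), the NFAT core TGGAAA (21.4%) and the PU.1 core GAGGAA (28.3%). A capital run that differs from these letters is their reverse complement, and no matches overlapped.
Ctsk, chr3:95498960-95499259, plus strand: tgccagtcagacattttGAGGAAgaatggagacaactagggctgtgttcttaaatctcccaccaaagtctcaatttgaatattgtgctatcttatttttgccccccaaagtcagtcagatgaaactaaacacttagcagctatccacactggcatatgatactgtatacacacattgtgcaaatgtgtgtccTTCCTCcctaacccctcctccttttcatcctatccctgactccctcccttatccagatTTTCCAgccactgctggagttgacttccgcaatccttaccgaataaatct
Acp5, most downstream start, chr9:22130549-22130848, minus strand: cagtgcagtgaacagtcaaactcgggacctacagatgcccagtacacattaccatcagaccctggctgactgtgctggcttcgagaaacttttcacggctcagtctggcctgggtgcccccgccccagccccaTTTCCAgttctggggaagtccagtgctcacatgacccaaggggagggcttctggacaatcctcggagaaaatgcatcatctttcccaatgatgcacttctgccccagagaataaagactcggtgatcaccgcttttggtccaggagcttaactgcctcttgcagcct
Tnfsf11, chr14:78307994-78308293, minus strand: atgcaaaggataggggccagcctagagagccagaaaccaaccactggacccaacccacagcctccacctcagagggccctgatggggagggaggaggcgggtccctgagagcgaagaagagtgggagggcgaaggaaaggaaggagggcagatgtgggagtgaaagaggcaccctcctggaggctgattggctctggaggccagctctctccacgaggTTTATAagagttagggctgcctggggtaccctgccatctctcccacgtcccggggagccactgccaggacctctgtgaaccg
The *Ctsk* window held the NFAT core once, at the start site, and the PU.1 core at 233 and 58 bases before it. In *Acp5* the NFAT core stood 117 bases before the start, and in *Tnfsf11* the TATA box stood 32 bases before it. The windows of *Csf1*, *Tnfrsf11a* and the other 2 starts of *Acp5* held none of the 5. These are matches of letters and do not show that a factor binds.

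Each RNA molecule is counted once by its unique molecular identifier (UMI), and a level is given as CPM, the UMIs of a gene for every 1000000 UMIs of the cells of a class. The CpG ODN library held 72173148 UMIs in 6219 barcodes and the LPS library held 38656738 in 2016, and cells with at least 800 detected genes numbered 4888 and 1277, with medians of 11078 and 22680 UMIs. Only 1 barcode was shared by kept cells of both libraries. Cells were clustered without the 8 genes, and classes were named from marker genes as, for example, fibroblast-like (237 and 54 cells, with all 10 fibroblast markers), myeloid-like (51 and 23, 10 of 11 markers), T-like (67 and 17) and B-like (423 and 69). In every pair of values below, the first belongs to CpG ODN and the second to LPS.

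RANKL was almost absent from the RNA of these cells. *Tnfsf11* had 1 UMI in the CpG ODN library and 3 in the LPS library, each from a single cell. The CpG ODN cell was fibroblast-like by its cluster, held 23343 UMIs and had a UMI of all 10 epithelial markers as well as of 5 of 10 fibroblast markers. The LPS cell was placed among the myeloid-like cells, held 8498 UMIs, and had 1 of 12 myeloid markers, 1 mast cell marker and no T cell marker. T and B cells are known sources of RANKL in periodontal lesions. No T-like cell had a UMI of *Tnfsf11*, which allows up to 14.4 CPM in the 67 cells after CpG ODN and 32.5 CPM in the 17 after LPS, and no B-like cell had one, which allows 2.07 and 12.7 CPM. In the epithelium the limit was far lower. For basal-like cells it was 0.108 and 0.24 CPM, and for suprabasal-like cells 0.0939 and 0.157 CPM. Both *Tnfsf11* cells were among the 5% of cells with the highest doublet scores, and without these no UMI of the gene was left. A difference in *Tnfsf11* between the ligands was not detectable at this depth.

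The decoy was better represented, but in few cells. *Tnfrsf11b* had 27 and 81 UMIs, and *Tnfsf11* had 0.037 UMIs for each UMI of the decoy in either library (0.000905 to 0.225 and 0.00748 to 0.112), a count of molecules with no correction for length. In the LPS library, 85.2% of the *Tnfrsf11b* UMIs came from a small cluster led by *BC037156*, *S100a9*, *S100a8* and *Odam*. *Odam* encodes a protein known from the junctional epithelium, the collar of cells that attaches gingiva to tooth. All 10 epithelial markers were found in this cluster, but it was given no cell type name because its leading genes held more markers of another class, the neutrophil markers *S100a8* and *S100a9*. Its 17 CpG ODN cells held 4 *Tnfrsf11b* UMIs, or 16.9 CPM (4.59 to 43.2), and its 16 LPS cells held 69, or 121 CPM (94 to 153). This is a CpG ODN/LPS ratio of 0.139 (0.037 to 0.374), or a 7.17-fold higher level after LPS. *Tnfrsf11b* was 1 of 2 genes examined here with at least 20 UMIs in the cluster, and 6.43% of 4090 genes had a ratio of 0.5 or less there. Neither of the 2 reached a ratio of 2, as 5.43% of genes did.

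The counts of single cells overlapped between the libraries. After CpG ODN, 3 of 17 cells had a UMI, with 2, 1 and 1, and the other 14 had none. After LPS, 7 of 16 cells had one, with 31, 11, 11, 9, 3, 2 and 2, and 9 had none. The high cells were thus LPS cells, and 1 of them held 44.9% of the UMIs of its library. These 7 cells were also rich in *Odam*, with 359 to 1060 *Odam* UMIs each. Among cells with at least 100 *Odam* UMIs, a limit set after the values were seen, 4 CpG ODN cells had 3 *Tnfrsf11b* UMIs (26.5 CPM) and 9 LPS cells had 69 (174 CPM), a ratio of 0.153 (0.0307 to 0.465). The cells of the cluster were deeper after LPS, with medians of 35534 against 10535 UMIs, and *Odam* itself had a ratio of 0.609 (0.574 to 0.645) while *Krt14* had 0.963. The part of these differences in the *Tnfrsf11b* ratio was not tested.

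**Figure D1:**
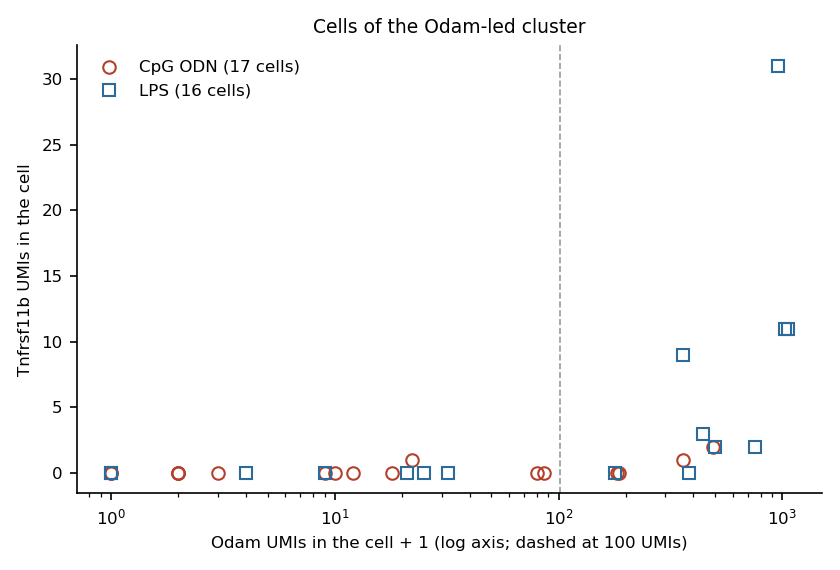
Each point is a cell of the Odam-led cluster, with its Odam UMIs plus 1 on a log axis and its Tnfrsf11b UMIs on a linear axis, for 17 CpG ODN cells (circles) and 16 LPS cells (squares). All 7 LPS cells with a Tnfrsf11b UMI lie to the right of the dashed line at 100 Odam UMIs, and the highest holds 31.

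After CpG ODN the decoy had no main source. Fibroblast-like cells held 33.3% of its 27 UMIs, gland-like epithelial cells 22.2% and the Odam-led cluster 14.8%. Gland-like epithelial cells, with markers such as *Krt7*, *Krt8* and *Wfdc2*, held 6 and 11 UMIs (3.75 and 6.84 CPM), and fibroblast-like cells held 9 and 1 (8.24 and 2.01 CPM). Of the 9, 7 came from a sub-cluster led by *Chad*, *Myoc* and *Prg4*, which held 0 UMIs of the osteoblast gene *Bglap*. In a finer division, at resolution 1.0, 7 UMIs lay in 4 of 10 cells grouped by *Cytl1*, *Chad* and *Acan* (148 CPM, 59.3 to 304). The 22 cells grouped by *Pcsk2* and *Myoc* then held 0. The fibroblast-like value after CpG ODN thus rested mostly on 4 cells, and their identity was not tested. Mural-like cells held 4 UMIs (12.2 CPM, 3.33 to 31.3) and endothelial-like cells 3 (13.3 CPM, 2.75 to 38.9) after CpG ODN, where both intervals overlapped that of the Odam-led cluster, and neither held any after LPS. The 2311 and 535 basal-like cells, at medians of 10942 and 21446 UMIs, held 0 UMIs of *Tnfrsf11b*, which allows up to 0.108 and 0.24 CPM, and the 1127 and 358 suprabasal-like cells also held 0, which allows 0.0939 and 0.157 CPM.

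The receptor *Tnfrsf11a* had 43 and 51 UMIs, spread over several classes. Its level was highest among the named classes in endothelial-like cells, at 17.8 CPM (4.84 to 45.5) and 38.7 CPM (15.6 to 79.8). Myeloid-like cells had 11.8 CPM (3.21 to 30.1) and 29.6 CPM (9.6 to 69), and mural-like cells had 12.2 and 11.9 CPM. An unnamed cluster of 12 and 6 cells led by *Acta2* and *Myh11* had 66.2 and 34.7 CPM from 3 and 2 UMIs. The intervals of the 3 named classes overlapped in both libraries, and no order among them can be given. All 3 myeloid-like CpG ODN cells with a *Tnfrsf11a* UMI also had *Csf1r*, as did 2 of 3 after LPS. No UMI was found in B-like or T-like cells, and fibroblast-like cells had 0 and 1.

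In gland-like epithelium *Tnfrsf11a* differed between the libraries, with 3 UMIs (1.87 CPM, 0.387 to 5.48) in 3 of 121 cells after CpG ODN and 17 (10.6 CPM, 6.16 to 16.9) in 8 of 71 cells after LPS. The ratio was 0.177 (0.0333 to 0.613), and 0.112 to 0.218 under other settings. It was the only 1 of 3 genes examined here with at least 20 UMIs in these cells to have a ratio of 0.5 or less, as 5.83% of 9376 genes had, and none reached a ratio of 2, as 6.68% did. The class joins 2 clusters. In the one led by *Tff2* and *Muc5b*, which are mucous gland genes, 12 CpG ODN cells held 2 UMIs and 14 LPS cells held 12, and in the one led by *Wfdc18*, 109 cells held 1 and 57 cells held 5. Taken singly, the intervals of both clusters included 1 (0.225, 0.0244 to 1.01, and 0.187, 0.00395 to 1.67).

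**Figure D2:**
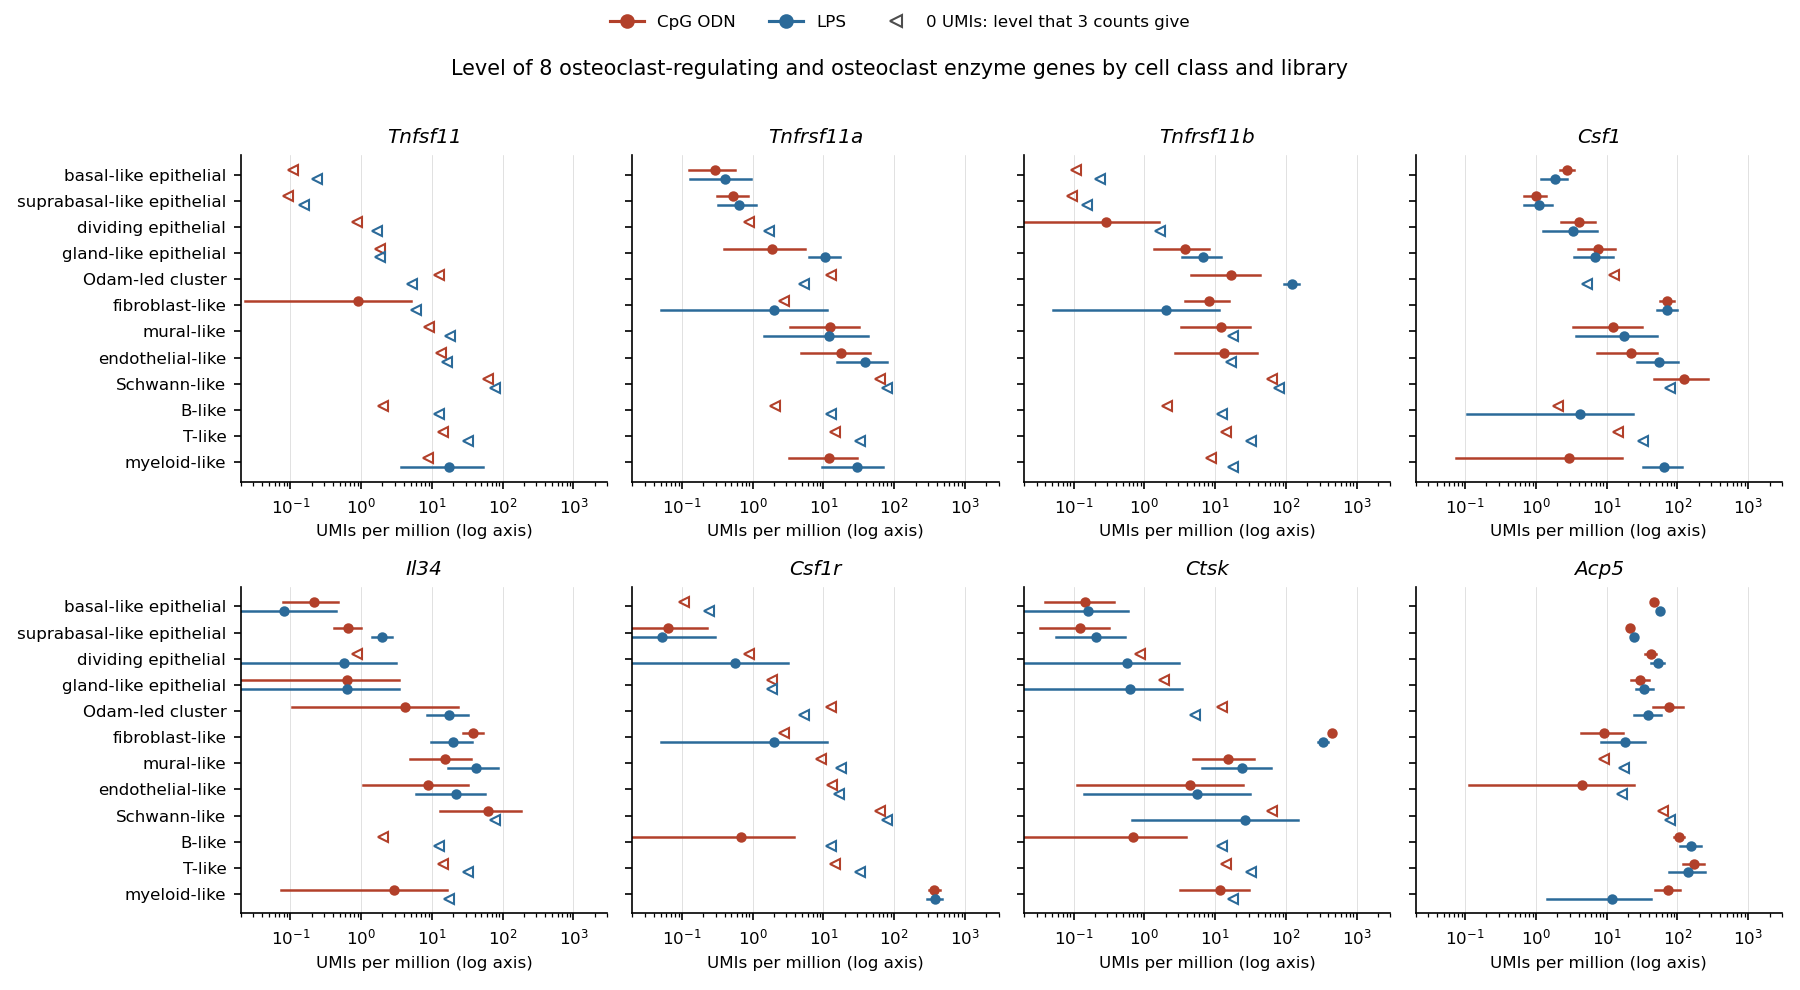
Level of each gene (CPM, log axis) in 12 classes of cells in the CpG ODN and LPS libraries, with lines for the 95% Poisson interval, cut at the left edge of the axis, and open triangles at the level that 3 counts would give where no UMI was found. Ctsk stands apart in fibroblast-like cells and Csf1r in myeloid-like cells, and Tnfsf11 is nearly all open triangles. Acp5 is found in most classes, with its highest values in T-like and B-like cells.

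M-CSF RNA was found in connective tissue and in epithelium. Fibroblast-like cells held 32.2% and 27.7% of the *Csf1* UMIs, and basal-like epithelial cells held 31.4% and 17.7% at a far lower level. *Csf1* had 78 and 36 UMIs in fibroblast-like cells, 71.4 CPM (56.5 to 89.1) and 72.3 CPM (50.6 to 100), and a UMI in 61 of 237 and 16 of 54 cells, whereas no T-like cell had one. The ratio of the libraries was 0.988, and its interval of 0.657 to 1.51 leaves room for a difference in either direction. Among the fibroblast-like cells the highest level in both libraries was in a sub-cluster led by the chemokine genes *Ccl7* and *Cxcl1* and by *Has1*, with 140 CPM in 69 cells and 180 CPM in 9. The unnamed cluster led by the contractile genes *Acta2* and *Myh11* had 309 CPM (169 to 518) from 14 UMIs in 12 cells and 139 CPM (59.9 to 273) from 8 UMIs in 6 cells. Its intervals overlapped those of the *Ccl7* sub-cluster in both libraries, and no order is given between them. Endothelial-like cells had 22.2 and 55.3 CPM. In the Schwann-like cells of the CpG ODN library 6 UMIs came from 2 of 23 cells (125 CPM), 5 of them from 1 cell, and none was found after LPS, where a count of 0 allows 79 CPM. Basal-like epithelium, the most numerous class, held 76 and 23 UMIs, or 2.75 and 1.84 CPM.

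Myeloid-like cells held 1 *Csf1* UMI in the CpG ODN library (2.94 CPM), while 4 of the 23 LPS cells together held 11 (65.1 CPM). Its ratio was 0.0452 (0.00105 to 0.311) and rests on that 1 UMI. With 12 UMIs in all, the gene fell under the minimum of 20 used to count genes past the fold. None of the 4 LPS cells had a UMI of *Csf1r*. With at least 1200 detected genes the LPS myeloid-like cells held 0 *Csf1* UMIs and those of the CpG ODN library 1, so that no ratio could be given.

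The second ligand, *Il34*, had 82 and 72 UMIs and a different distribution. Its level in fibroblast-like cells was 38.5 CPM (27.7 to 52) from 42 UMIs and 20.1 CPM (9.63 to 36.9) from 10, with a ratio of 1.91 (0.945 to 4.28). Without the 5 highest cells of each library the ratio was 5.77, but it then rested on very few LPS counts. Only 7 of 54 LPS cells had a UMI, and the 5 highest cells held 80% of the UMIs after LPS and 35.7% after CpG ODN. Among fibroblast-like cells the highest *Il34* value after CpG ODN was in the sub-cluster led by *Grem1* and *C1qtnf3*, where *Csf1* had 50.5 CPM. It was 75.7 CPM (42.4 to 125) from 15 UMIs. Intervals of other sub-clusters overlapped it, such as that led by *Tnc* (52.1 CPM, 22.5 to 103), and no order is given among them. Mural-like cells had 15.3 CPM (4.95 to 35.6) and 41.5 CPM (16.7 to 85.5), and these intervals overlapped those of the fibroblast-like cells. Among keratinocytes the UMIs were unevenly spread. Suprabasal-like cells had 21 and 38 UMIs, 0.657 and 1.99 CPM, and the ratio of 0.33 (0.184 to 0.576) was the only one at or below 0.5 among the 4 genes with at least 20 UMIs there, against 2.66% of 11877 genes, while none of the 4 reached 2, against 1.51%. Most of these UMIs, 12 and 28, came from a cluster led by *Krt4*, *Lor* and *Slpi*, with 3.97 and 10.7 CPM and a ratio of 0.371 (0.172 to 0.753). The 2 clusters led by *Krt10* together had 0 and 3. In the Odam-led cluster *Il34* had 1 UMI in 17 cells and 10 UMIs in 6 of 16 cells, a ratio of 0.241 with an interval that included 1 (0.00554 to 1.69).

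The receptor of both ligands, *Csf1r* (ENSMUSG00000024621, chr18:61100598-61132149, plus strand), overlaps *Hmgxb3* on the opposite strand. It was found almost solely in the myeloid-like cells, although it was left out when the cells were clustered. It had 125 UMIs (368 CPM, 306 to 438) and 63 UMIs (373 CPM, 286 to 477), which were 94.7% and 95.5% of the UMIs of the gene. Between the libraries the ratio was 0.987 (0.724 to 1.36). Of 51 and 23 cells, 28 (54.9%, 40.3 to 68.9%) and 7 (30.4%, 13.2 to 52.9%) had a UMI, or 36.7% and 23% when each cell is thinned to 1500 UMIs, while 0 of 67 and 0 of 17 T-like cells had one at medians of 2814 and 5106 UMIs. The LPS level thus rested on fewer cells, and 1 of them held 25.4% of its UMIs. With myeloid cells taken by *Lyz2* in place of the clusters, the ratio was 2.21 (1.59 to 3.1), and as a mean over cells it was 1.48. The level itself moved with the gene limit for cells, to 624 and 694 CPM in 38 and 16 cells at 200 genes and to 643 and 853 CPM in 28 and 8 cells at 1200 genes.

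*Ctsk* RNA was found mainly in fibroblast-like cells in both libraries. Fibroblast-like cells held 487 of 506 UMIs after CpG ODN (96.2%, 94.2 to 97.7%) and 168 of 183 after LPS (91.8%, 86.8 to 95.3%). The level was 446 CPM (407 to 487) and 337 CPM (288 to 393), against 0.274 and 0.409 CPM in all other kept cells. Fibroblast-like cells with a UMI numbered 170 of 237 (71.7%, 65.5 to 77.4%) and 37 of 54 (68.5%, 54.4 to 80.5%) at medians of 4088 and 8770 UMIs per cell, or 44.6% and 33% after thinning to 1500 UMIs. B cells are not known to make cathepsin K, and of the B-like cells, with median depths of 2495 and 3157, a UMI was seen in 1 of 423 and 0 of 69. Mural-like cells had 15.3 CPM (4.95 to 35.6) and 23.7 CPM (6.46 to 60.7). The intervals of mural-like, endothelial-like and Schwann-like cells overlapped in both libraries, with 26.3 CPM from 1 UMI in the Schwann-like cells after LPS, and no order is given among them. Myeloid-like cells held 4 UMIs in 1 of 51 cells after CpG ODN and none in 23 cells after LPS, which allows 17.7 CPM.

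Per cell, *Ctsk* ranged in fibroblast-like cells from 0 to 21 UMIs after CpG ODN (median 1) and from 0 to 37 after LPS (median 2), so the cells of the libraries overlapped. The 5 highest cells held 14.4% of the UMIs after CpG ODN and 44.6% after LPS. The CpG ODN/LPS ratio in fibroblast-like cells was 1.32 (1.11 to 1.58), below the 2-fold limit. It was 1.59 (1.31 to 1.95) without the highest cell of each library and 1.9 (1.51 to 2.4) without the highest 5. Equal numbers of cells were a larger share of the 54 LPS cells than of the 237 CpG ODN cells. These 2 values are therefore not trimmed alike and do not show a larger difference between the ligands. No gene of the 3 tested in fibroblast-like cells passed the 2-fold limit, where 5.13% of 7795 genes were higher and 3.57% lower after CpG ODN.

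Divided into 7 sub-clusters without *Ctsk* and *Col14a1*, the fibroblast-like cells differed in *Ctsk*. Of the sub-clusters with at least 15 CpG ODN cells, the highest was led by *Grem1*, *C1qtnf3*, *Omd* and *Aspn*, matrix genes among them, with 833 CPM (710 to 970) in 51 cells and 714 CPM in 5. The lowest was led by *Fmo2* and *Steap4*, with 252 CPM (172 to 356) in 40 cells and 188 CPM in 13. Sub-clusters led by *Ccl7* and *Cxcl1*, by *Chad* and *Myoc*, and by *Tnc* and *Tnn* had 524, 285 and 521 CPM after CpG ODN. In the last of these, 3 LPS cells held 56 of the 168 UMIs of that library, or 2206 CPM, and 1 of them held 37. The ratio there was 0.236 (0.166 to 0.339). In the *Ccl7* sub-cluster, with 69 and 9 cells, it was 2.16 (1.39 to 3.5). In the other 5 the interval included 1. The only ratio below 1, that of the *Tnc* sub-cluster, thus rested on 3 LPS cells and mostly on 1 of them. The sub-clusters made up different shares of the libraries. A sub-cluster of 9 and 4 cells led by keratin genes had only 43.4 and 23.6 CPM. Its median depths were 16239 and 23044 UMIs, and it held 7503 UMIs of the epithelial marker list. Another, led by *Tagln* and *Acta2*, had 1 CpG ODN cell and 10 LPS cells, with 271 CPM after LPS.

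*Col14a1*, a collagen gene that marks a group of fibroblasts, was used to divide the cells once more. After CpG ODN, 102 cells with a *Col14a1* UMI had 487 CPM (428 to 553) and 135 cells without one had 412 CPM (362 to 466). After LPS, 34 cells with one had 226 CPM (179 to 281) and 20 without had 614 CPM (493 to 757). Thinned to 1500 UMIs per cell, the levels were 583 and 476 CPM after CpG ODN and 182 and 542 CPM after LPS. The LPS difference rested on the 3 cells of the sub-cluster led by *Tnc*, all without a *Col14a1* UMI, and 1 of them held 37 *Ctsk* UMIs. Without that sub-cluster, an alternative chosen after seeing the data, 34 and 17 LPS cells had 226 CPM (179 to 281) and 272 CPM (186 to 383). The level with over that without *Col14a1* was then 0.831, with an interval that included 1 (0.545 to 1.29), and the CpG ODN cells had 486 and 377 CPM, a ratio of 1.29 (1.05 to 1.58).

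**Figure D3:**
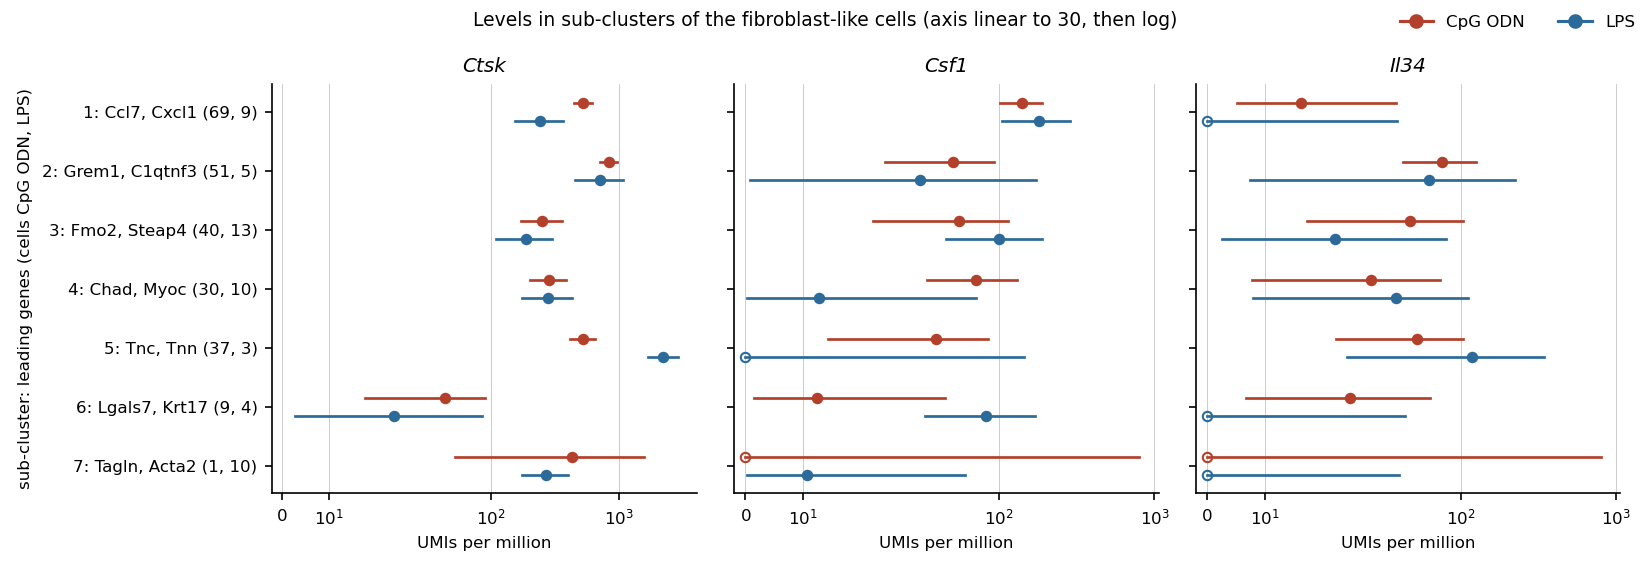
Levels of Ctsk, Csf1 and Il34 (CPM; axis linear to 30 and log beyond) in 7 sub-clusters of the fibroblast-like cells, named by leading genes with the numbers of CpG ODN and LPS cells, with 95% Poisson intervals and open circles for 0 UMIs. Ctsk is highest in sub-cluster 2 after CpG ODN (833) and in the 3 LPS cells of sub-cluster 5 (2206). The Csf1 value is highest in sub-cluster 1 in both libraries (140 and 180), with intervals that overlap those of sub-cluster 3.

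*Acp5* had 2464 and 1397 UMIs and was found in most classes. Its levels were highest in lymphocytes, at 173 CPM (121 to 239) and 141 CPM (74.9 to 241) in T-like cells and 105 CPM (89.4 to 124) and 156 CPM (110 to 215) in B-like cells. The intervals of these 2 classes overlapped, and after CpG ODN those of the Odam-led cluster (75.9 CPM, 45 to 120) and of the myeloid-like cells (73.6 CPM, 47.6 to 109) overlapped that of the B-like cells. Epithelial cells held most UMIs, with 46.1 and 55.9 CPM in basal-like, 41.7 and 53 CPM in dividing and 21.4 and 24.2 CPM in suprabasal-like cells. Connective tissue held little. Fibroblast-like cells had 9.16 and 18.1 CPM, endothelial-like cells had 1 UMI and 0, and mural-like cells had none, which allows 9.15 and 17.8 CPM. Barcodes below the 800-gene limit in which over 50% of UMIs were hemoglobin, had 0 of 441859 UMIs, which allows 6.79 CPM, and 4 UMIs, or 3.22 CPM (0.876 to 8.23). In T-like, B-like and basal-like cells of both libraries the level was above these values.

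Within the epithelium *Acp5* differed more between clusters than between libraries. The cluster led by *H19*, *Krt15* and *Dcn* had 107 and 102 CPM, and a suprabasal-like cluster led by *Krt4*, *Serpinb3a* and *Ada* had 52.5 and 51.1 CPM. The cluster led by *Serpinb3a* and *Krt10* had 15.2 and 14.2 CPM, and the one led by *Krt4* and *Lor* had 14.2 and 14.5 CPM. *Acp5* was 1 of 2 genes tested in basal-like cells, and neither passed the 2-fold limit, as 1.05% of genes did upwards and 1.67% downwards. Over all basal-like cells the ratio was 0.826 (0.752 to 0.907), but in each of the 6 basal-like clusters the interval included 1, with ratios from 0.887 to 1.05. The *H19* cluster held 89 of 2311 basal-like cells after CpG ODN and 74 of 535 after LPS. Likewise the ratio over suprabasal-like cells was 0.883 (0.784 to 0.996), with 0.723 to 1.19 in 6 clusters whose intervals all included 1. For B-like cells it was 0.675 (0.469 to 0.994), inside the 2-fold limit that 17.7% of 6571 genes passed upwards and 5.36% downwards, and 0.863 (0.583 to 1.3) in the B-like cluster that had cells of both libraries. The other B-like cluster had 140 CpG ODN cells and no LPS cell.

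**Figure D4:**
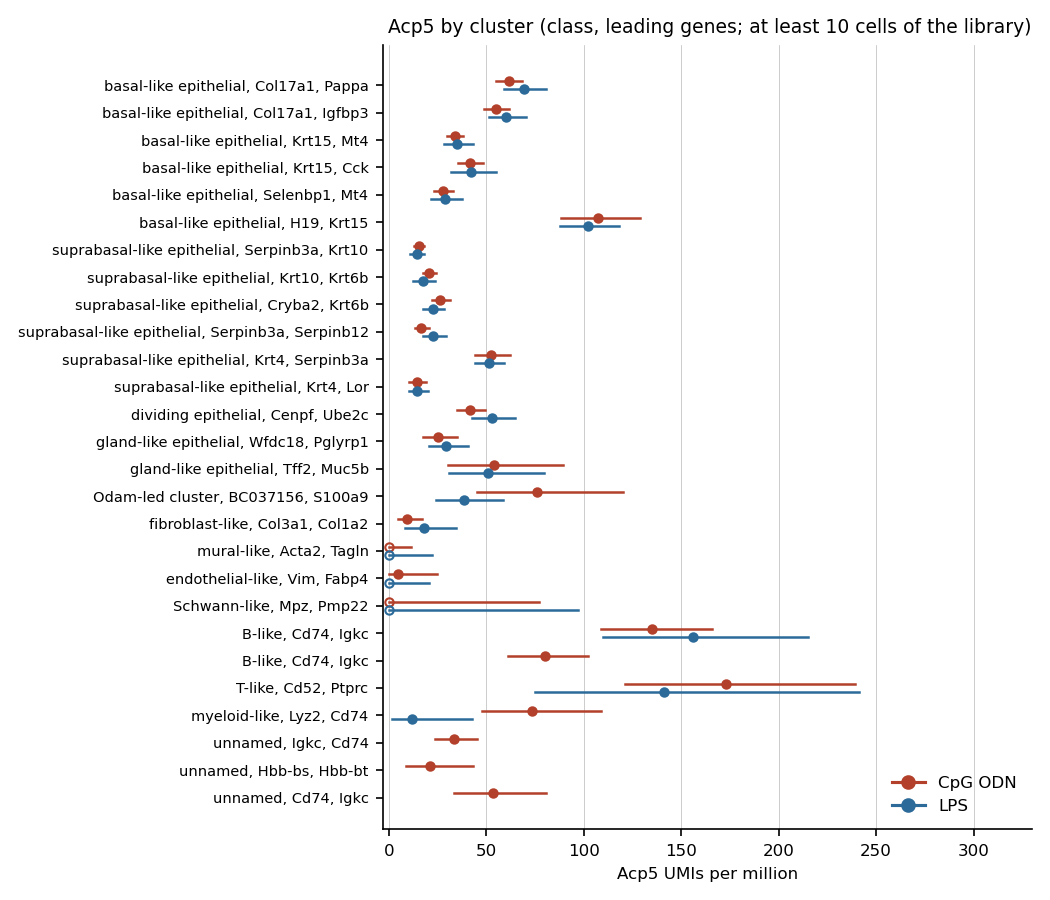
Acp5 level (CPM) in each cluster of at least 20 cells, labelled by class and 2 leading genes, with 95% Poisson intervals; a library with fewer than 10 cells in a cluster is not drawn, and open circles mark 0 UMIs. The points of the libraries lie close together within most epithelial clusters (107 and 102 in the H19 cluster), while the myeloid-like points lie apart (73.6 and 11.8).

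Only in the myeloid-like class, among those with intervals on 1 side of 1, was *Acp5* higher after CpG ODN. There it had 25 UMIs in 12 of 51 cells (73.6 CPM, 47.6 to 109) and 2 UMIs in 2 of 23 cells (11.8 CPM, 1.43 to 42.7). Of the 25, 11 were in 1 cell. The class was not pure. *Lyz2*, a defining myeloid gene, was seen in 32 of 51 and 11 of 23 of its cells, and all 12 listed myeloid markers had a UMI in both libraries (7993 and 10654 CPM in sum). The T or NK markers, of which 10 of 10 and 9 of 10 had a UMI (*Cd8a* was at 0 after LPS), summed to 184 UMIs (542 CPM) and 136 UMIs (804 CPM). Their part in the *Acp5* values was not tested. The ratio was 6.22 (1.55 to 54.2), and it was 1 of 2 genes tested in the class, where 8.93% of 3584 genes were at least 2 times as high after CpG ODN. Neither of the 2 was at or below 0.5, as 8.43% of genes were.

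No cell had the set of genes that defines an osteoclast. Of the 6 defining genes other than *Acp5* and *Mmp9*, *Calcr* had no UMI in either library, *Dcstamp* had 0 and 1, *Oscar* 1 and 0, *Ocstamp* 5 and 5, *Atp6v0d2* 1 and 20, and *Itgb3* 79 and 21. At least 1 of them was found in 73 and 28 cells and at least 2 in none. *Ctsk* and *Acp5* occurred together in 7 and 9 cells, of which 3 and 4 were fibroblast-like and 1 and 0 myeloid-like. *Mmp9*, which neutrophils and macrophages also make, had 13 of its 14 UMIs and 33 of 33 in myeloid-like cells. Of the osteoblast list, *Bglap* had 200 UMIs in 4 fibroblast-like cells after CpG ODN and none in those of the LPS library. A list of 5 periodontal ligament or tendon genes summed to 2968 and 977 UMIs in fibroblast-like cells. Of this list, *Tnmd* was seen in 24 of 37 and 3 of 3 cells of the *Tnc* sub-cluster. It was seen in 8 of 51 and 2 of 5 cells of the *Grem1* sub-cluster, and in 0 of 69 and 0 of 9 of the *Ccl7* one. The part of such cells in the fibroblast values was not tested.

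**Figure D5:**
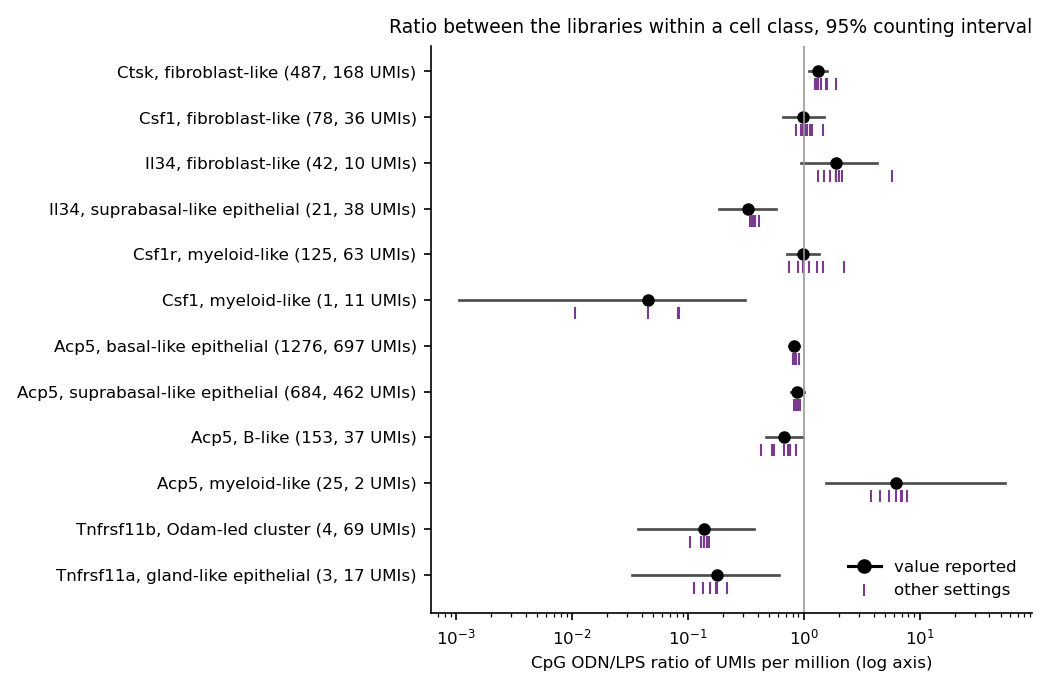
CpG ODN/LPS ratio of the level of a gene in a class (black points, log axis), with the 95% counting interval and the UMIs of each library in brackets, and purple ticks for the values under other settings. Tnfrsf11b in the Odam-led cluster (0.139) and Csf1 in myeloid-like cells (0.0452, from 1 and 11 UMIs and with no ratio at a limit of 1200 genes) lie to the left of 1, Acp5 in myeloid-like cells (6.22) lies to the right, and Csf1 in fibroblast-like cells (0.988) lies at 1.

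Set against all other kept cells, 7 of the 8 genes had at least 20 UMIs, and a class was counted where the level was at least 4 times that of the other cells in both libraries, among 15468 genes tested. In fibroblast-like cells 3 of the 7 passed, *Ctsk*, *Csf1* and *Il34*, against 12.6% of all genes, and in endothelial-like cells *Tnfrsf11a*, *Csf1* and *Il34* passed, against 9.94%. *Tnfrsf11a* and *Il34* passed in mural-like cells (9.19%), *Tnfrsf11a* and *Csf1r* in myeloid-like cells (7.41%), and *Tnfrsf11b* in the Odam-led cluster (2.85%). None of the 7 passed in basal-like (0.517%), suprabasal-like (2.37%), dividing (2.34%) or gland-like (5.66%) epithelial cells, nor in Schwann-like (6.86%), B-like (7.40%) or T-like (5.20%) cells. The rule needs a UMI in both libraries, and the Schwann-like cells held only 47832 and 37963 UMIs of all genes. A miss in so small a class does not show a low level. *Csf1* was 37.5 times (13.6 to 82.8) as high there as in other cells after CpG ODN, with 0 UMIs after LPS. The endothelial-like values of *Il34* came from 1 cell in each library.

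Other genes of the pathway were read against the same 4-fold rule. Of 12 such genes for osteoclast differentiation and function, 7 passed in myeloid-like cells, where 7.41% of all genes did. Among these 7, *Atp6v0d2* had 1 UMI in the class in each library, of 1 and 20 in all kept cells. The highest there were *Tyrobp*, a signalling adaptor, with 956 and 1698 CPM, *Spi1*, which encodes PU.1, with 180 and 254 CPM, and *Mmp9*, a gelatinase, with 38.3 and 195 CPM. *Tyrobp* also stood in the list of myeloid markers by which the class was named, so its high level there is no separate result. In fibroblast-like cells, where 12.6% of all genes passed, 3 of the 12 did, *Itgb3*, *Mmp14*, a membrane-bound collagenase (194 and 181 CPM), and *Mitf* (19.2 and 36.2 CPM). Of 11 genes of RANK signalling, *Nfatc1*, *Nfkb1* and *Nfkb2* passed in myeloid-like cells. By level *Fos* (2425 and 1059 CPM) and *Nfkb1* (256 and 243 CPM) came first there. *Nfatc1*, the master transcription factor of osteoclasts, also passed in fibroblast-like (63.2 and 50.2 CPM), endothelial-like and B-like cells.

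Fibroblast-like cells, where 12.6% of all genes passed, did so for 4 of 10 cytokines and mediators that promote osteoclasts. These were *Il11*, *Wnt5a* (139 and 169 CPM), *Il6* (55.9 and 56.2 CPM) and *Ptgs2*, a prostaglandin synthase (47.6 and 34.1 CPM). Fibroblast-like cells also passed for 3 of 5 genes that restrain osteoclasts, *Sfrp1* (127 and 175 CPM), *Sema3a* (44.9 and 22.1 CPM) and *Wnt16* (19.2 and 12.1 CPM). Among these 3 the *Sema3a* ratio was 2.03 (1.04 to 4.33) and the *Sfrp1* ratio 0.728 (0.553 to 0.963). In myeloid-like cells, where 7.41% of all genes passed, 5 of the 10 promoting genes did, *Il1a*, *Il1b*, *Osm*, *Ptgs2* and *Tnf*, and 1 of the 5 restraining genes, *Ebi3*. The Odam-led cluster, which held most of the decoy UMIs after LPS, passed for *Il1a* (46.4 and 159 CPM, ratio 0.291, 0.14 to 0.545) and *Wnt5a* (122 and 130 CPM), against 2.85% of all genes.

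Other cathepsins were also high in fibroblast-like or myeloid-like cells. Of 12 tested, *Ctsf*, *Ctsl*, *Ctso* and *Ctsz* passed in fibroblast-like cells, against 12.6% of all genes. The highest levels there were those of *Ctsl* (685 and 749 CPM), *Ctsb* (496 and 627 CPM) and *Ctsd* (289 and 309 CPM). The *Ctsl* ratio there was 0.914 (0.806 to 1.04) and that of *Ctsb* was 0.792 (0.688 to 0.913). In myeloid-like cells 7 passed, against 7.41% of all genes, with *Ctsb* (933 and 887 CPM), *Ctss* (536 and 603 CPM) and *Ctsc* (491 and 432 CPM) the highest. *Ctss* also stood in the list of myeloid markers by which that class was named. Cystatins inhibit cysteine cathepsins, and none of their 7 genes passed in fibroblast-like or myeloid-like cells. In fibroblast-like cells *Cst3* had 1905 and 2149 CPM with a ratio of 0.886 (0.823 to 0.955). In suprabasal-like cells 3 of the 7 passed, *Cst6*, *Stfa1* and *Stfa2*, against 2.37% of all genes.

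Over 50 points, each a cluster in 1 library, the genes most like *Ctsk* by Pearson correlation of log2(CPM + 1) were *Col1a1* (0.914), *Postn* (0.9), *Mfap4* (0.9), *Pdgfrb* (0.899) and *Ccl19* (0.891), of 12584 genes compared. For *Tnfrsf11b* they were *Cdo1* (0.841), *Cxcl5* (0.838), *Gprc5a* (0.807), *Aldh1a3* (0.802) and *Plat* (0.793). For *Csf1* they were *Olfm1* (0.838), *Grb10* (0.814), *Plcb1* (0.813), *Acvrl1* (0.813) and *Cd302* (0.811), and for *Il34* they were *Fstl1* (0.834), *Tbx3* (0.833), *Col6a3* (0.827), *Prkg1* (0.824) and *Map1a* (0.823). The points share libraries and differ in depth, and these values are descriptions. On the scale log2(CPM + 10) 1, 1, 1 and 2 of the 5 genes came among the first 5 again.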

How the data were processed

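The authors deposited, for each library, the count of UMIs per gene and barcode as a filtered matrix of Cell Ranger (version 4.0.0 in the file header), not normalized. The genome build of the alignment was not given in the sources used here. Coordinates came from GENCODE M21 (GRCm38) by identifier, which held 32158 of the 32285 identifiers. The 8 genes and the gene lists were chosen with earlier results of these data known, and all 8 were named whatever their values. Of a pathway list, the genes with the 3 highest levels in a class were named, or all that passed where 5 or fewer did.

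Barcodes with 800 or more detected genes were analysed, the limit the study states. Counts were scaled to 10000 UMIs per cell and log-transformed. For 2000 variable genes per library, 30 principal components and 15 neighbours gave Leiden clusters at resolution 1.0 (leidenalg 0.10.2, Python 3.11.15), and 0.5 for fibroblast-like cells. The 8 genes, *Col14a1* and the pathway lists were held out of the clustering. When classes were named only the 8 genes were left out, and the pathway genes *Tyrobp* and *Ctss* stayed in the myeloid marker list. Classes were named from marker lists, by a scoring rule set after the data were seen, and 5 clusters stayed unnamed. No doublet was removed.

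UMIs were summed per class and library, with exact Poisson intervals for CPM, the exact conditional interval for a ratio and Clopper-Pearson intervals for shares, all at 95%. The limit for a count of 0 was 3 counts. Shares of cells were also computed for thinning to 1500 UMIs per cell. Ratios and class folds were counted over genes with at least 20 UMIs. On simulated counts for fibroblast-like cells (7795 genes, 200 changed 4-fold), all 200 had the right direction and 96.7% of intervals held the true ratio. These counts were drawn as independent Poisson counts, which the intervals assume. The simulation thus checks the computation only, and not the intervals for counts gathered in a few cells or for the spread between mice. The alternatives were other gene limits, resolutions, signature genes, means over cells and the removal of likely doublets or of the highest cells.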

Additional observations from a re-analysis of the deposited data

Results flagged for a closer look

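*Acp5* had CpG ODN/LPS ratios on opposite sides of 1 in different classes, and the difference between the classes was not tested. It was 6.22 in myeloid-like cells, where 1 CpG ODN cell held 11 of 25 UMIs and the LPS library had 2 UMIs, and 0.826 in basal-like epithelial, 0.883 in suprabasal-like epithelial and 0.675 in B-like cells. Without the highest cell of each library, or under any of the other alternatives that gave a value, the myeloid-like ratio lay between 3.84 and 7.77.

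Barcodes with fewer than 800 genes, which took no part in the comparisons, held 160 UMIs of *Acp5* in the CpG ODN library (99.1 CPM, 84.3 to 116) and 7 in the LPS library (4.66 CPM, 1.87 to 9.6). Both counts were above the 3 that a count of 0 allows. Hemoglobin-rich barcodes made up 474 of the 1331 and 604 of the 739 left out, and the 474 held none of the 160.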

How the results depend on the processing

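Of the recomputed values of the main results, 105 stayed within the counting interval of the reported value. Another 25 moved outside it or lost shared genes. None of the called ratios changed side where an alternative gave a ratio. Alternatives with 0 UMIs in a library gave none and were not counted. Among them was *Csf1* in myeloid-like cells at 1200 genes, with 1 and 0 UMIs, the opposite order to its reported ratio. The *Ctsk* ratio in fibroblast-like cells was 1.59 without the highest cell of each library and, in an alternative chosen after seeing the data, 1.9 without the highest 5, and *Il34* was then 5.77. These removals took a larger share of the 54 LPS cells than of the 237 CpG ODN cells. *Csf1r* in myeloid-like cells was 2.21 with cells taken by *Lyz2* and 1.48 as a mean over cells. *Acp5* was 0.911 in cells taken by *Krt5* and 0.425 in B-like cells of at least 1200 genes. At resolution 1.0 the lowest and highest *Ctsk* levels after CpG ODN, among fibroblast-like sub-clusters of at least 15 CpG ODN cells, were 137 and 1148 CPM. Without the sub-cluster led by *Tnc*, chosen after seeing the data, *Ctsk* in LPS cells with over without *Col14a1* was 0.831. After thinning to 1500 UMIs the shares of cells, which depend on depth, became 44.6 and 33% for *Ctsk*, 10.3 and 8.48% for *Csf1* and 4.89 and 3.84% for *Il34* in fibroblast-like cells, 36.7% for *Csf1r* in CpG ODN myeloid-like cells, 1.5 and 11.3% for *Tnfrsf11b* in the Odam-led cluster, and 7.16 and 8.3% for *Acp5* in basal-like cells. On the scale log2(CPM + 10), 1 of the 5 most alike genes stayed for *Ctsk*, 1 for *Tnfrsf11b*, 1 for *Csf1* and 2 for *Il34*. The cause of these changes was not tested, other than thinning. Without the 5% of cells with the highest doublet score no *Tnfsf11* UMI was left in either library, so the ratio to *Tnfrsf11b* could not be given. At resolution 0.5 no myeloid-like class was formed. The *Csf1* ratio in fibroblast-like cells lay between 0.862 and 1.46 and so on either side of 1. *Tnfrsf11b* in the Odam-led cluster kept to 0.105 to 0.153. With 1 library per ligand, the spread between mice cannot be given, and the 23 myeloid-like and 16 Odam-led cells of the LPS library limit their values. No paired analysis was possible because there was a single library per ligand.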
